A study of Mus musculus with 44 samples.

Results

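The mRNA levels of 27 genes of cholesterol synthesis, sterol sensing and sterol uptake were followed in the liver and skeletal muscle of Slc16a13 knockout (KO) and wild-type (WT) mice. The genes were listed by symbol and role, but with earlier results of these data known. They are 8 enzymes that lead from acetyl-CoA to squalene (Acat2, Hmgcs1, Mvk, Pmvk, Mvd, Idi1, Fdps, Fdft1), 11 that lead from squalene to cholesterol (Sqle, Lss, Cyp51, Tm7sf2, Lbr, Msmo1, Nsdhl, Hsd17b7, Ebp, Sc5d, Dhcr7), 4 that sense sterols (Srebf2, Scap, Insig1, Insig2) and 4 of sterol transport and uptake (Stard4, Mylip, Npc1, Npc2). Each of the 27 symbols matched 1 Ensembl identifier among the 38202 rows of the count and RPKM tables, and all 27 passed the filter on low counts in each comparison. Poly(A) RNA of 22 male mice on a C57BL/6N background was sequenced, 11 WT littermates and 11 homozygous KO mice, with liver and muscle taken from the same animals, which gave 44 libraries. The KO allele was made with CRISPR/Cas9 and is constitutive, so it is carried in every tissue and from birth. All mice of both genotypes ate a high-fat diet for 15 weeks and were killed at 20 weeks of age, by the study's methods after an overnight fast unless stated otherwise.

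Cholesterol is built from acetyl-CoA through mevalonate, isoprenoids, squalene and lanosterol in the endoplasmic reticulum. When sterols there are low, Scap escorts SREBP2, the product of Srebf2, to the Golgi for cleavage, and the released factor turns on the enzymes of the route, its own gene, Insig1 and sterol uptake. Insig1 and Insig2 hold Scap back when sterols are plentiful, the liver is a main site of synthesis, and feeding state and time of day move the route there.

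The promoter letters of 6 members are shown, chosen with their values known: Hmgcs1 for its sterol-element letters, Idi1, Msmo1 and Nsdhl as enzymes that varied between mice, and the 2 Insig genes, whose levels behaved differently. Other members with windows, such as Mvd and Cyp51, varied as much and are not printed. RefSeq windows (GRCm38.p6, 250 bases before to 50 after a start) were present for 22 of the 27 genes. Fdps, Fdft1, Sqle, Stard4 and Npc1 had none in the table used. The 250 bases before the first listed start are printed in the direction of transcription, with capitals for CCAAT (both strands, ATTGG on the other) and for the sterol-element letters TCACNCCAC (both strands).
Hmgcs1: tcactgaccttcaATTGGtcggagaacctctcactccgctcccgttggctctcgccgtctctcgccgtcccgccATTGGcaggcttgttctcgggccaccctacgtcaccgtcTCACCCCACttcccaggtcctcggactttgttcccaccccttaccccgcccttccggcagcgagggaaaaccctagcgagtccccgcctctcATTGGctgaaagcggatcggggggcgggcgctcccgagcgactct
Idi1: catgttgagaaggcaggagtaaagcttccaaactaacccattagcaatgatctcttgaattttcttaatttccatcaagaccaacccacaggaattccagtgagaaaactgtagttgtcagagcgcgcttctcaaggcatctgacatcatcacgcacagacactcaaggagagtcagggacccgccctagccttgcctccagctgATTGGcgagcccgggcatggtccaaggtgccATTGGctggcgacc
Msmo1: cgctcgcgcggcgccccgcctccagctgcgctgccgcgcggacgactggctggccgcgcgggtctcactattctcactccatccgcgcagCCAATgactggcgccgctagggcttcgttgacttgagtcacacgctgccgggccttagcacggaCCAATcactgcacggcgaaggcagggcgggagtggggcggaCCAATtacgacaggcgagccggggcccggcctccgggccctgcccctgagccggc
Nsdhl: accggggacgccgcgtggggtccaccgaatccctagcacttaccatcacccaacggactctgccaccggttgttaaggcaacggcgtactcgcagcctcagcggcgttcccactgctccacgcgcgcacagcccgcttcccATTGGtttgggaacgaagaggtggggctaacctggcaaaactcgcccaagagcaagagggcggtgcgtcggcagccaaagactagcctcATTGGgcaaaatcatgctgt
Insig1: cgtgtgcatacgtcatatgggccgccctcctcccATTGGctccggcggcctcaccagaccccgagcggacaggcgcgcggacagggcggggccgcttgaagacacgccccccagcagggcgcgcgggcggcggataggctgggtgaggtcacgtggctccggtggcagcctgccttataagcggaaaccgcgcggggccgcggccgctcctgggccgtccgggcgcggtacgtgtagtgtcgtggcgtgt
Insig2: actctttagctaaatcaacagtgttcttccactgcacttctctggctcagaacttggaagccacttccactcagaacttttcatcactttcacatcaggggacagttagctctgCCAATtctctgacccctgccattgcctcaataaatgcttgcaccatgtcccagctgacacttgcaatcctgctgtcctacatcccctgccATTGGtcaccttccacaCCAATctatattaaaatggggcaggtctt
These windows lie at chr13:119690101-119690350 (plus strand) for Hmgcs1, chr13:8885356-8885605 (plus) for Idi1, chr8:64733579-64733828 (minus) for Msmo1, chrX:72918271-72918520 (plus) for Nsdhl, chr5:28071162-28071411 (plus) for Insig1 and chr1:121332590-121332839 (minus) for Insig2. CCAAT, the letters that the factor NF-Y reads, stood in a window of 20 of the 22 members (90.9%), all but Acat2 and Scap. It stood in a window of 42.7% of the 10013 genes that were tested in liver and have windows, and of 41.1% of all 27025 genes in the table. At least 2 CCAAT boxes in 1 window were found for 13 of 22 members (59.1%) and for 16.3% of the genes tested in liver. The 9 letters TCACNCCAC were found for Hmgcs1 alone among the members, at bases -137 to -129 from the start, and for 1.46% of the genes tested in liver. With 1 of the 8 fixed letters allowed to differ, 11 of 22 members (50%) and 29% of the genes tested in liver held them. The GC box GGGCGG was found for 21 of 22 members against 67% of the genes tested in liver, and the E-box CACGTG for 5 of 22 (Hsd17b7, Sc5d, Dhcr7, Scap, Insig1) against 11.8%. No match of one motif overlapped a match of another in the members' windows. Genes with several windows had more chances to hold a motif, and a match is a description of letters only.

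The targeted gene was read first. Slc16a13, a monocarboxylate transporter, had 99 to 302 reads in the WT livers and 0 to 8 in the KO livers (log2 fold change -5.45, SE 0.30, edgeR adjusted p = 2.81e-11). In muscle it had 4 to 22 reads in WT libraries and 11 to 40 in those labelled KO (log2 fold change 0.64, SE 0.22, edgeR adjusted p = 0.495). The muscle counts thus did not show the loss seen in liver, and those libraries are called "labelled KO" throughout. By the paper the deletion removes part of the gene, and counts per gene do not show which exons the reads came from. The muscle genotype was not tested further. Total counts ran from 20150712 to 35218243 per library. In 4 KO livers (animals 532, 583, 602 and 611) log2 CPM, taken relative to each gene's mean over all livers, fell with gene length. Their slopes ran from -0.537 to -0.079 per doubling of length, while the WT livers had slopes of 0.038 to 0.098. The slopes are relative to the other livers, and so is the cut at 0. Results in KO liver are given with and without these 4 livers. The defining markers fitted the tissues: the sum of 6 hepatocyte markers was 82540 to 114600 CPM in WT liver, 87640 to 135900 CPM in KO liver and at most 53.6 CPM in muscle, and the sum of 6 skeletal muscle markers was 114700 to 177500 CPM in muscle and at most 54.8 CPM in liver.

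In WT mice most of the route stood far higher in liver than in muscle. With an edgeR adjusted p below 0.05 and at least a 2-fold difference, 20 of the 27 members (74.1%) were higher in liver, against 28.5% of the 13907 genes tested, and 1 (Lbr) was higher in muscle, against 26.7%. The median log2 difference liver over muscle was 2.63 over the members and 0.0035 over all genes. By role, 5 of 8 early enzymes, 10 of 11 late enzymes, 4 of 4 sensing genes and 1 of 4 transport genes (Stard4) passed as higher in liver. For KO liver over muscle labelled KO the same 2 counts were 20 and 1, and the median was 2.02. The 4 KO livers with a slope below 0 are included there.

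The largest tissue differences were those of 2 late enzymes, Ebp and Msmo1, and of Stard4. Ebp, the sterol isomerase, had 178 RPKM at the lowest, 200 at the median and 215 at the highest of 11 WT livers, and 3.38, 6.50 and 7.49 RPKM in the muscles of the same mice, a log2 difference of 5.10 (SE 0.08). Msmo1, the methylsterol oxidase, had 25.7, 48.5 and 144.7 RPKM in WT liver and 1.29, 2.28 and 3.42 in WT muscle (log2 difference 4.81, SE 0.31). Stard4, a cytosolic sterol carrier, had 7.70, 14.1 and 21.4 RPKM in liver and 0.268, 0.585 and 0.681 in muscle (4.75, SE 0.21). No liver value of these 3 genes came near the muscle values. Tm7sf2 and Lbr, a pair of enzymes with the same sterol reductase activity, pointed opposite ways. Tm7sf2 had 38.1, 52.0 and 94.2 RPKM in liver and 2.55, 3.17 and 3.99 in muscle (log2 difference 4.43, SE 0.17). Lbr, which also anchors the nuclear lamina, had 1.75, 1.98 and 2.59 RPKM in liver and 6.56, 7.17 and 8.70 in muscle (log2 difference -1.79, SE 0.07, edgeR adjusted p = 2.37e-18).

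Of the other genes at the low end, Npc1, which carries cholesterol out of lysosomes, was lower in liver by a log2 difference of -0.31 (SE 0.07, edgeR adjusted p = 0.000148), with 23.7, 27.5 and 33.99 RPKM in WT liver and 28.4, 35.5 and 41.1 in WT muscle. Mylip, the ubiquitin ligase of lipoprotein receptors, had 5.47, 6.79 and 7.43 RPKM in liver and 5.04, 7.69 and 11.1 in muscle (-0.21, SE 0.10, adjusted p = 0.0641). Fdft1, squalene synthase, had 11.4, 15.6 and 31.95 RPKM in liver and 17.3, 19.3 and 24.9 in muscle (-0.08, SE 0.15, adjusted p = 0.619). The ranges of these 3 genes overlapped between the tissues. Fdft1 shares 774 exon bases with Ctsb on the opposite strand in the GENCODE vM21 models, and without a stated strand setting reads of the pair cannot be told apart.

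Per length, the order in WT liver was led by Insig2 (328.5 RPKM ± 108.1 SD, n = 11), Ebp (198 ± 12.7), Sc5d (107.5 ± 13.9), Msmo1 (61.1 ± 36.8), Tm7sf2 (60.5 ± 19.2) and Hmgcs1 (57.1 ± 22.6). Of neighbours in this order, Insig2 and Ebp overlapped in range, as did Sc5d, Msmo1, Tm7sf2 and Hmgcs1, while each WT liver had more Ebp than any had Sc5d. The lowest were Lbr (2.06 ± 0.25), Mvd (4.46 ± 2.55) and Idi1 (5.62 ± 4.42), and their ranges overlapped. Insig1 stood at 30.3 ± 12.2 RPKM, below each value of Insig2. In WT muscle Npc1 (35.1 ± 4.38), Insig2 (32.8 ± 2.82) and Fdft1 (19.7 ± 2.24) led and Sqle was lowest (0.429 ± 0.132), where it rested on 15 to 51 reads per library.

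**Figure D1:**
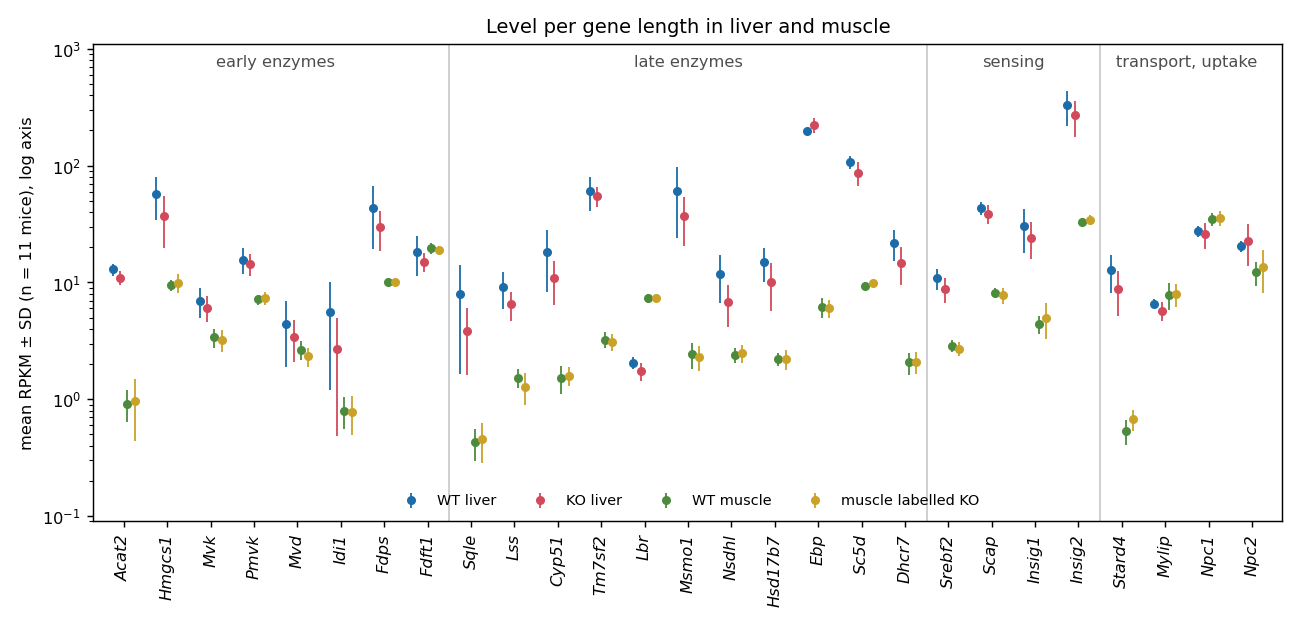
Mean RPKM (log axis) with SD over 11 mice for each of the 27 genes, in WT liver, KO liver, WT muscle and muscle labelled KO, ordered by role. Liver values lie above muscle values for most genes, while Lbr lies lower in liver (2.06 against 7.31 RPKM in WT) and Fdft1, Mylip and Npc1 lie close together.

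The route differed strongly from mouse to mouse in WT liver. The SD of log2 CPM between the 11 WT livers had a median of 0.465 over the members and 0.175 over the 13005 genes tested, and 14 of the 27 lay above the 90th percentile of all genes (0.464). Fold ranges below are on the log2 CPM scale with a prior count of 2, scaled within liver, and so differ slightly from the ratio of the CPM beside them. Sqle, squalene epoxidase, had 3.92 CPM in the lowest WT liver, 16.3 at the median and 58.5 in the highest, a 14.4-fold range that put its spread at the 99.4th percentile. Idi1, the isopentenyl diphosphate isomerase, had 1.23, 3.43 and 12.5 CPM, a 9.49-fold range, on 28 to 309 reads. Msmo1 spanned a 6.12-fold range (32.9 to 204.7 CPM), Fdps, farnesyl diphosphate synthase, also a 6.12-fold range (20.2 to 125.6 CPM), Mvd, which makes isopentenyl diphosphate, a 5.88-fold range and Cyp51, lanosterol demethylase, a 5.06-fold range. The same 4 mice (animals 531, 537, 567 and 623) held the 4 highest values of both Sqle (27.7 to 58.5 CPM) and Idi1 (5.62 to 12.5 CPM). Other members were steady: Ebp spanned 1.37-fold (150 to 208 CPM), Npc1 1.35-fold, Mylip 1.33-fold and Npc2, the partner of Npc1 in the lysosome, 1.30-fold. Srebf2 itself spanned 1.91-fold, Scap 1.47-fold and Sc5d, a late desaturase, 1.49-fold.

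In the other groups the members stood out less. The median SD of the members was 0.385 in KO liver, where all genes had 0.348 and 2 members lay above the 90th percentile. Without the 4 KO livers with a slope below 0 it was 0.328 against 0.183 over all genes, with 8 members above that percentile. In muscle the medians were 0.202 (WT, all genes 0.162) and 0.207 (labelled KO, all genes 0.173), with 0 and 2 members above the 90th percentile. In KO liver Sqle ran from 2.24 to 23.4 CPM with a median of 10.03. Idi1 ran there from 0.210 to 7.22 CPM with a median of 2.28, and its 2 lowest values, 0.210 and 0.258 CPM, were both from livers with a slope below 0.

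The members rose and fell together between WT livers. Among the 171 pairs of the 19 synthesis enzymes the median Pearson r of log2 CPM over the 11 WT livers was 0.879, all 171 were above 0, and 146 (85.4%) reached 0.7, a level that 2.33% of all pairs of genes reached. The pairs share the depth and scaling of each library and are not independent of each other, so these are descriptions. Insig1, a target and brake of SREBP2, followed the enzymes as closely as they followed each other (median r 0.944 with the 19), and so did Srebf2 (0.881), while Stard4 came lower (0.824). Insig2 (-0.322), Mylip (-0.323), Npc2 (0.161), Npc1 (0.324) and Scap (0.433) did not rise to that level. The weakest enzymes were Ebp (0.673) and Acat2 (0.689). Acat2, the cytosolic thiolase, has a near copy, Acat3, with a median of 5072 reads in liver, so its count is uncertain.

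**Figure D2:**
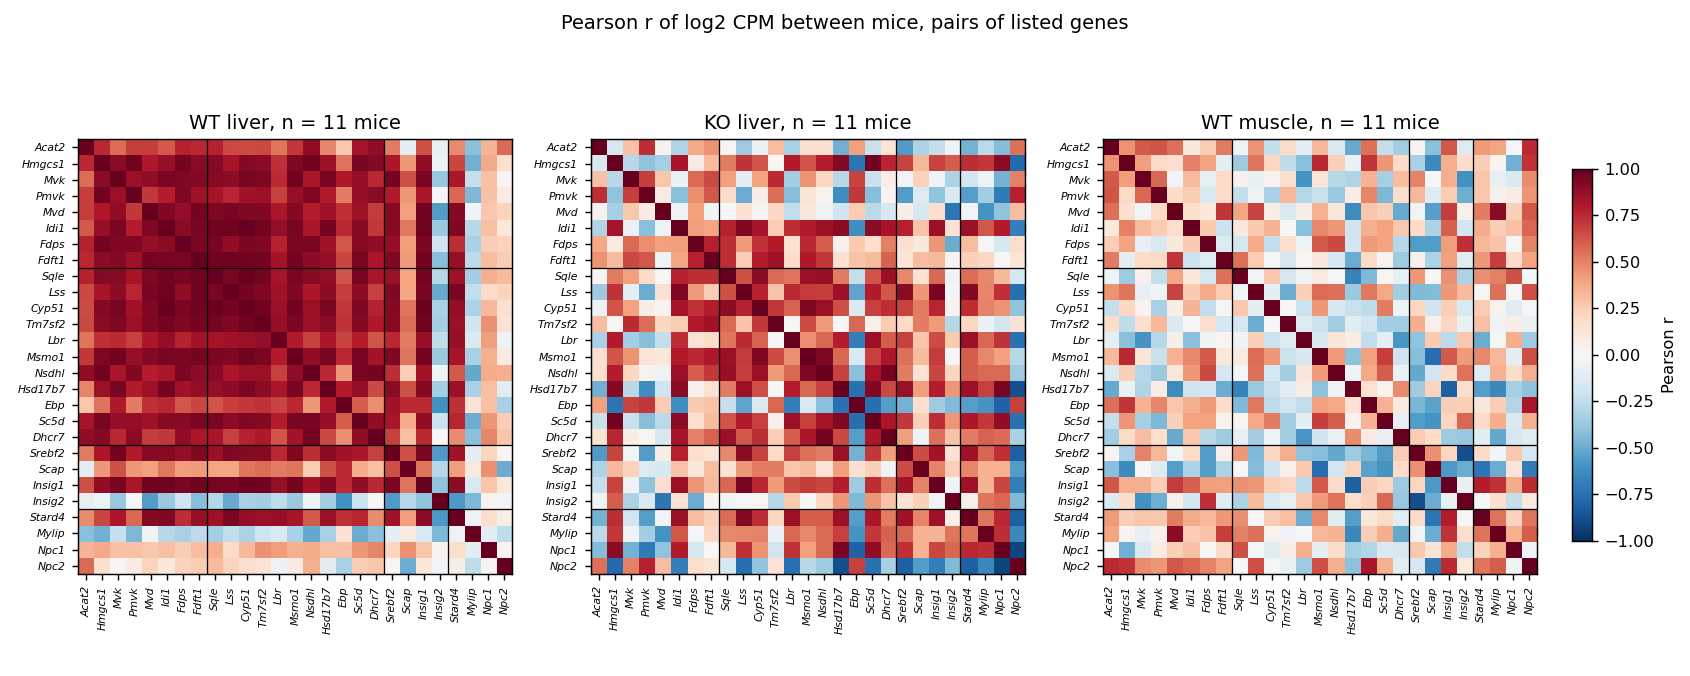
Pearson r of log2 CPM between mice for each pair of the 27 genes in WT liver, KO liver and WT muscle (n = 11 mice each), red for positive and blue for negative, with lines between the roles. WT liver shows 1 block of high values (median 0.879 over enzyme pairs) that leaves out Scap, Insig2, Mylip, Npc1 and Npc2, while enzyme pairs have a median of 0.423 in KO liver and 0.062 in WT muscle.

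Each member was also tested against Sqle, with 104 relations over the 4 groups, 100000 permutations of the mice and Benjamini-Hochberg adjustment over the 104. In WT liver 20 of 26 members passed by Pearson's r and also by Spearman's rho. Cyp51 gave r = 0.978 and rho = 0.982 (both permutation p = 1e-05, the smallest these permutations can give, adjusted p = 0.00021 and 0.00069, n = 11), and without the 2 mice farthest from the median of Sqle r was 0.971. Idi1 gave r = 0.964 and rho = 0.964 (permutation p = 1e-05 and 2e-05, adjusted 0.00021 and 0.00069), with 0.945 without those mice. These pairs ran close to a straight line on log axes, and the brake Insig1 was nearly as tight. Insig1 gave r = 0.955 and rho = 0.927 (permutation p = 3e-05 and 0.00016, adjusted 0.00035 and 0.0024), with 0.928 without them. For Srebf2 the values were r = 0.860 and rho = 0.836 (permutation p = 0.00093 and 0.0022, adjusted 0.0054 and 0.012), with 0.777 without them. Nsdhl, a sterol demethylating dehydrogenase, gave r = 0.914 and rho = 0.818 (permutation p = 9e-05 and 0.0032, adjusted 0.00072 and 0.015), with 0.837 without them.

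The 6 members that did not pass in WT liver were Ebp (r = 0.627, adjusted permutation p = 0.12), Scap (0.391), Npc1 (0.361), Npc2 (0.318), Insig2 (-0.285) and Mylip (-0.338). Across all genes, 18 of the 13004 other genes (0.138%) had r of at least 0.9 with Sqle in WT liver, and 13 of these 18 were members. Sqle was set against library measures too, over 20 relations in WT and KO liver. In WT liver r was 0.084 with total counts and 0.421 with the length slope (0.744 without the 2 mice farthest from the median of Sqle). With the summed hepatocyte markers r was 0.69 (rho 0.682, permutation p = 0.021 and 0.025, adjusted 0.42 and 0.50). The summed adipocyte markers gave -0.495, and none of the 20 passed after adjustment. In a bulk sample fewer cells of a type and less RNA per cell cannot be told apart.

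In KO liver the covariation was looser. The enzyme pairs had a median r of 0.423, 133 of 171 were above 0 and 29.2% reached 0.7, against 12.2% of all pairs of genes. Without the 4 livers with a slope below 0 the median was 0.694 over 7 mice, with 49.1% at 0.7 or above against 5.77% of all pairs. Against Sqle, 5 members passed in KO liver: Cyp51 (r = 0.894, rho = 0.936), Nsdhl (0.869, 0.745), Msmo1 (0.867, 0.9), Dhcr7, the last reductase of the route (0.867, 0.764), and Idi1 (0.772, 0.864). Their adjusted permutation p ran from 0.00069 to 0.039, and r without the 2 mice farthest from the median of Sqle ran from 0.640 to 0.909. Without the 4 livers 7 members passed, over 26 relations and 7 mice. Over all 11 KO livers Ebp gave r = -0.231 with Sqle, and 0.177 without the 4, while Insig2 gave -0.034 in both. Whether the strength of covariation differed between WT and KO liver was not tested.

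**Figure D3:**
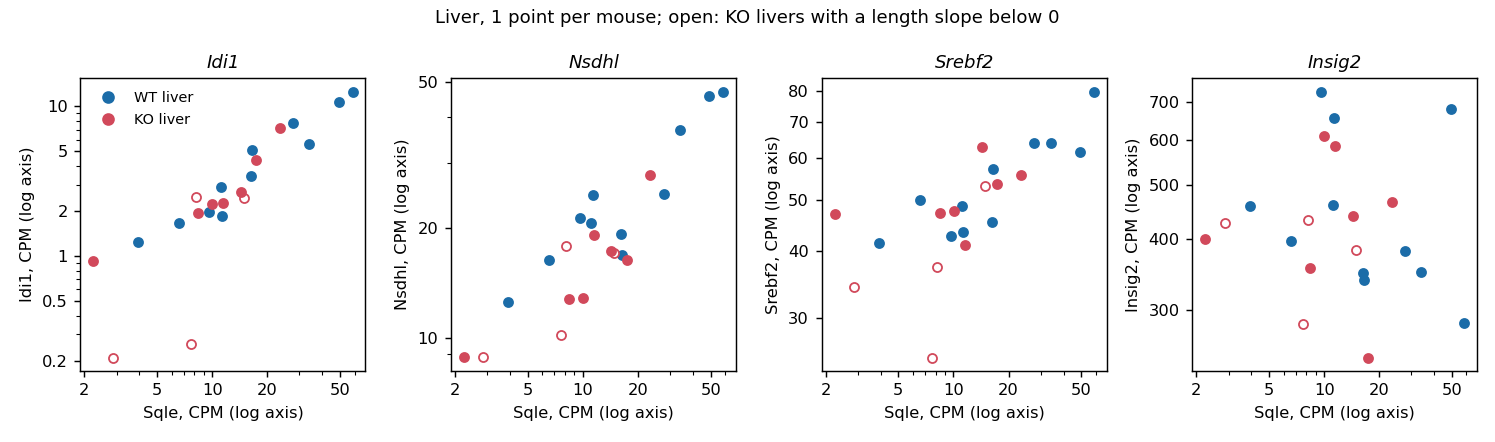
CPM of Idi1, Nsdhl, Srebf2 and Insig2 against CPM of Sqle (all axes log) in 11 WT and 11 KO livers, 1 point per mouse, with open points for the 4 KO livers with a length slope below 0. Idi1, Nsdhl and Srebf2 rise with Sqle in WT liver (r = 0.964, 0.914 and 0.860), Insig2 does not (r = -0.285), and 2 open points lie far below the rest for Idi1.

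Muscle did not show the pattern. In WT muscle the enzyme pairs had a median r of 0.062 and 1.8% reached 0.7 (2.12% of all pairs), and in muscle labelled KO the median was 0.156 with 4.7% (3.46% of all pairs). Against Sqle, 0 of 26 members passed in WT muscle, where 2 had an unadjusted permutation p below 0.05 for r (Hsd17b7 and Npc1), and 1 in muscle labelled KO, Mvd (r = 0.774, rho = 0.9, adjusted permutation p = 0.011 and 0.0029). Sqle had only 13 to 68 reads per muscle library, and the part of counting error was not tested. In WT muscle the median r with the other enzymes, which include Sqle and others with few reads, was 0.224 for Hmgcs1 and 0.024 for Fdft1. The liver level of a member was also set against the muscle level of the same mouse, 54 relations in all. None passed after adjustment, and 2 in WT mice and 1 in mice labelled KO had an unadjusted permutation p below 0.05 for r. The median r was -0.183 in WT mice and 0.128 in mice labelled KO. Idi1 in WT mice gave r = -0.677 and rho = -0.618 (permutation p = 0.025 and 0.047, adjusted 0.68 and 0.80).

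KO livers were compared with WT livers next, the comparison that asks what loss of Slc16a13 does under the diet. No member passed edgeR's quasi-likelihood test after adjustment over all 13005 genes (3 of all genes did, 0.0231%), nor DESeq2 or limma-voom (0 members each, with 11 and 8 members lower at an unadjusted p below 0.05). At an unadjusted p below 0.05, 12 of the 27 (44.4%) were lower in KO liver, against 3.1% of all genes, and 1 (3.7%) was higher, against 9.78% of all genes. The background depends on the scaling: 403 genes were lower and 1272 higher with TMM, 894 lower and 514 higher with library size alone, and 975 lower and 677 higher with limma-voom, and the members then numbered 15 and 8 lower, with 1 higher in both. In all, 24 members had a fold change below 0 and 3 above, and 51.1% of all genes were below 0. The median log2 fold change was -0.24 over the members and -0.0054 over all genes. By role, all 8 early enzymes lay below 0 (3 at unadjusted p below 0.05), 10 of 11 late enzymes (8), 3 of 4 sensing genes (0) and 3 of 4 transport genes (1). Since the members vary together between mice, these counts are not counts of independent genes.

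Nsdhl had the smallest p, with 12.5 CPM at the lowest, 21.2 at the median and 47.1 at the highest of the WT livers and 8.82, 16.3 and 27.8 CPM in the KO livers (log2 fold change -0.76, SE 0.23, edgeR p = 0.00285, adjusted p = 0.382). Dhcr7 had 24.3, 36.9 and 59.1 CPM in WT and 17.7, 29.5 and 40.2 in KO (-0.49, SE 0.15, p = 0.00433). Sc5d had 173, 205 and 264 CPM in WT and 124, 184 and 245 in KO (-0.23, SE 0.09, p = 0.0225). The groups overlapped for these 3 genes, and only the upper WT livers, 3 for Nsdhl and for Dhcr7 and 2 for Sc5d, lay above all KO livers. Sqle, with 3.92, 16.3 and 58.5 CPM in WT and 2.24, 10.03 and 23.4 in KO, had the largest fold change of the members, next to Idi1 (-1.01, SE 0.42, p = 0.0239). Hmgcs1, the cytosolic synthase at the entry of the route, had 103, 160 and 321 CPM in WT and 40.9, 110 and 240 in KO (-0.58, SE 0.24, p = 0.0253). Cyp51 had 21.1, 37.9 and 109 CPM in WT and 16.5, 33.1 and 60.7 in KO (-0.63, SE 0.28, p = 0.0323). The 4 highest WT livers of Sqle lay above all KO livers, and the lower 7 lay within the KO range.

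Lss, lanosterol synthase, had 16.3, 24.8 and 46.7 CPM in WT and 10.2, 18.5 and 27.1 in KO (-0.42, SE 0.18, p = 0.0331). Ebp pointed the other way, with 150, 188 and 208 CPM in WT and 149, 201 and 294 in KO (0.26, SE 0.10, p = 0.0148). The 4 highest KO values of Ebp, 215 to 294 CPM, were those of the 4 livers with a slope below 0. All 8 genes named here had an edgeR adjusted p of 0.382. The other members at an unadjusted p below 0.05 were Acat2, Msmo1, Stard4, Idi1 (-1.01, SE 0.47) and Hsd17b7, a ketoreductase of late steps, all lower. Srebf2 had -0.24 (SE 0.13, p = 0.0821), Insig1 -0.28 (SE 0.22) and Insig2 -0.13 (SE 0.17), while Scap stood at 0.0058 (SE 0.08).

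**Figure D4:**
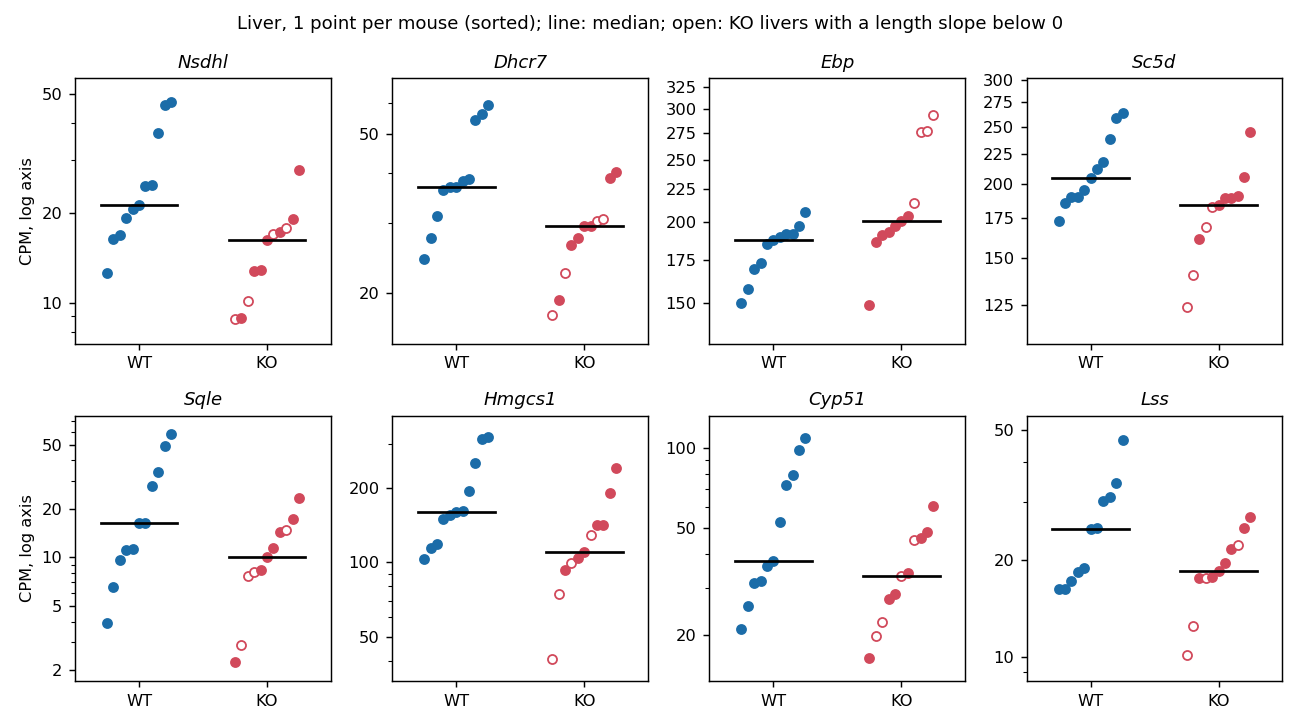
CPM (log axes) of the 8 members with the smallest p in KO against WT liver, 1 point per mouse in sorted order, a line at each median, and open points for the 4 KO livers with a length slope below 0. The groups overlap for each gene. The highest WT livers reach above all KO livers for each gene shown but Ebp, and open points make the upper end of Ebp in KO.

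**Figure D5:**
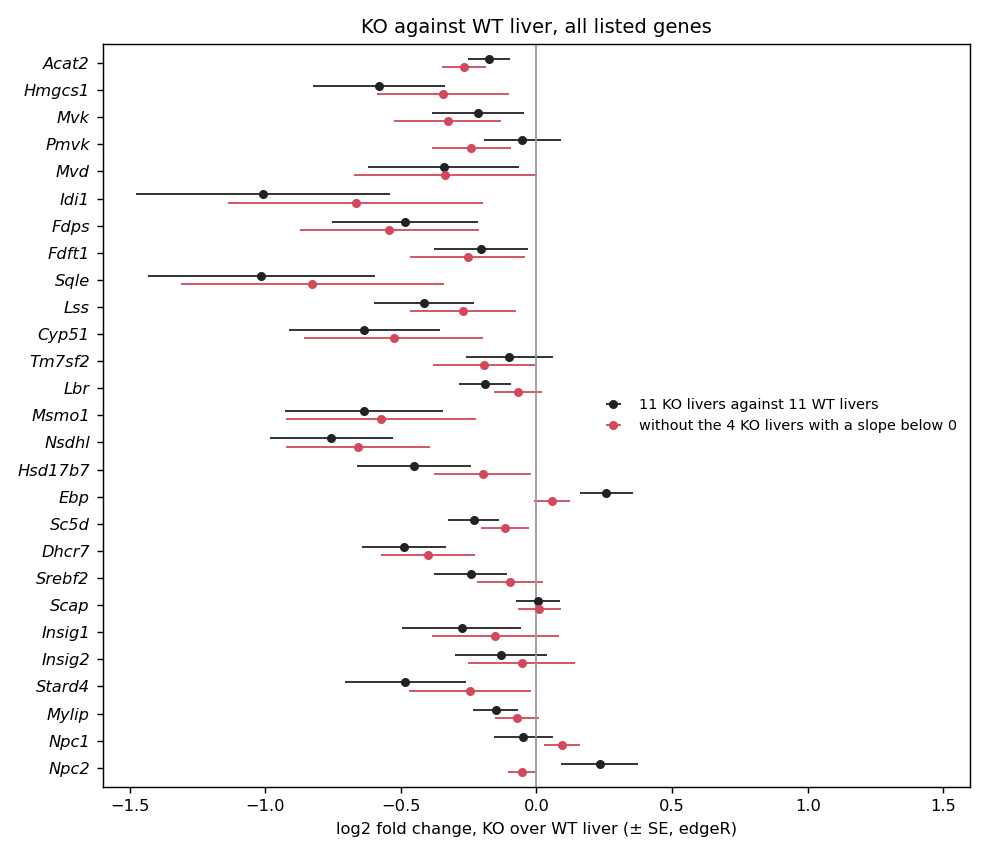
Log2 fold change KO over WT liver with SE for the 27 genes, with all 11 KO livers (black) and without the 4 with a length slope below 0 (red). Points lie below 0 for 24 genes in each fit (Npc1 and Npc2 change sides), and Ebp moves from 0.26 to 0.06.

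Without the 4 livers the median shift was nearly the same, while most genes named above stood closer to 0 and fewer passed. The median log2 fold change was -0.24 over the members and 0.0007 over all genes, again with 24 members below 0 (Npc1 and Npc2 changed sides), against 49.7% of all genes. At an unadjusted p below 0.05, 3 members were lower (11.1%: Acat2, Nsdhl and Dhcr7), against 1.6% of the 13210 genes tested, and 0 were higher, against 1.36%. No member passed after adjustment (0.0227% of all genes did), and each had an adjusted p of 0.999 in edgeR. Nsdhl stood at -0.66 (SE 0.27), Dhcr7 at -0.40 (SE 0.17), Sqle at -0.83 (SE 0.49), Idi1 at -0.67 (SE 0.47), Stard4 at -0.24 (SE 0.22) and Hsd17b7 at -0.20 (SE 0.18). With each library's trend on gene length removed, the median over the members was -0.24 (all genes 0.03), and 23 lay below 0, against 42.3% of all genes. At an unadjusted p below 0.05, 10 members were lower and 1 higher in that fit, and Ebp stood at 0.09 (SE 0.07). The share of all genes past that p is not given here for that fit, so the 10 and the 1 have no background beside them. Npc2, the 1 member higher in that fit (0.39, SE 0.18), stood at 0.23 (SE 0.14) in the first fit and at -0.05 (SE 0.05) without the 4 livers. Macrophage markers summed to 398 to 873 CPM in the 4 livers and 274 to 438 CPM in the other KO livers, and endothelial markers to 117 to 170 CPM and 177 to 214 CPM. Their part in the members' values was not tested.

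The count of 12 changed when single mice were left out. Leaving out WT animal 567 or 623 left 3 members lower at an unadjusted p below 0.05, leaving out WT animal 531 left 5 and WT animal 537 left 6, the 4 mice with the highest Sqle. Leaving out KO animal 532, 570 or 602 left 6 in each case. The share of all genes at that p is not given here for these runs. A change particular to the members therefore cannot be read from the counts. The median fold change of the members stayed between -0.28 and -0.17 when any 1 of the 22 livers was left out. The mean log2 CPM over the 19 enzymes was 5.01 ± 0.53 (SD, n = 11) in WT liver, from 4.25 to 5.92, and 4.64 ± 0.34 (n = 11) in KO liver, from 4.14 to 5.25. The 4 highest WT livers (5.34 to 5.92) lay above each KO liver, and the 4 KO livers with a slope below 0 lay at 4.21 to 4.89, within the range of the other KO livers.

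In muscle labelled KO against WT muscle the route was near level. No member passed after adjustment (0.00754% of the 13266 genes did, by edgeR), 1 was lower at an unadjusted p below 0.05 (Mvd, 3.7% of members against 4.88% of all genes) and 2 were higher (Stard4 and Sc5d, 7.41% against 3.76%). The median log2 fold change was 0.01 over the members, as over all genes, with 15 members above 0 and 12 below. Stard4 had 1.37, 2.34 and 2.98 CPM in WT and 1.79, 2.96 and 3.76 in muscle labelled KO (0.31, SE 0.14, edgeR adjusted p = 0.529). The ranges overlapped for it and for the 3 genes that follow. Sc5d had 15.9, 17.9 and 20.1 CPM against 17.6, 19.7 and 20.9 (0.09, SE 0.04, adjusted p = 0.533). For Mvd the values were 3.37, 4.38 and 5.85 against 3.21, 3.85 and 4.95 CPM (-0.20, SE 0.10, adjusted p = 0.563). Scap had 20.7, 22.8 and 25.9 against 18.8, 22.1 and 24.9 CPM (-0.09, SE 0.05, adjusted p = 0.591). These counts rest on few mice and on the scaling. Leaving out WT animal 528, 531, 586 or 624, or labelled KO animal 532, 561, 588 or 598, left 0 members lower, and leaving out WT animal 516 gave 3. Leaving out WT animal 537 or 567, or labelled KO animal 561 or 597, left 0 higher, and WT animal 531, 536, 616 or 624, or labelled KO animal 588, 598, 602 or 611, left 1. For these runs too the share of all genes is not given here. Over all genes 647 were lower and 499 higher with TMM, and 497 and 631 with library size alone, where 0 members were lower and 3 higher. Adipocyte markers summed to 254 to 772 CPM in WT muscle and 332 to 1619 CPM in muscle labelled KO, and their part was not tested.

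The difference between the tissues was tested itself, as a genotype by tissue term over all 44 libraries. No member passed after adjustment (0.00678% of 14739 genes did, by edgeR). At an unadjusted p below 0.05, 9 members (33.3%) had a lower KO effect in liver than in muscle, against 6.14% of all genes, and 1 (Ebp) a higher one, against 10%. The smallest p were those of Nsdhl (-0.79, SE 0.26), Sc5d (-0.31, SE 0.11) and Stard4 (-0.78, SE 0.28), each with an adjusted p of 0.277. With the animal as a replicate block 6 members were lower and 0 higher, and without the 4 mice whose livers had a slope below 0, 2 were lower and 0 higher. The shares of all genes at that p are not given here for those fits, so whether these counts exceed them cannot be read from the counts. Stard4 and Sc5d were the members at an unadjusted p below 0.05 in both tissues, lower in KO liver and higher in muscle labelled KO. Without the 4 KO livers with a slope below 0 neither stayed below that p in liver. Stard4 stood there at -0.24 (SE 0.22, edgeR p = 0.287) and Sc5d at -0.12 (SE 0.09, p = 0.202). Over all genes 905 had a lower and 1479 a higher effect in liver with TMM, and 1764 and 573 with library size alone, where 10 members were lower.

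Neighbouring lists were read the same way. Of 13 lipogenic targets of SREBP1, 12 were tested in liver, all 12 lay below 0 in KO and 0 passed after adjustment. At an unadjusted p below 0.05, 8 of the 12 were lower, against 3.1% of all genes (5 without the 4 livers, against 1.6%). Fasn, fatty acid synthase, had the smallest p (log2 fold change -0.53, SE 0.12, edgeR adjusted p = 0.382), then Elovl6, a fatty acid elongase (-0.47, SE 0.12), and Acaca, acetyl-CoA carboxylase (-0.29, SE 0.09). With gene length removed Fasn stood at -0.42 (SE 0.09) and Acaca at 0.02 (SE 0.12). With Sqle the median r over the 12 was 0.148 in WT liver, from -0.701 to 0.71, and 0.416 in KO liver, from -0.142 to 0.854, where the members had a median of 0.53. None of the 12 passed in either group among 128 relations of the other lists with Sqle, and Fads1, a fatty acid desaturase, came nearest in KO liver (r = 0.854, rho = 0.864, adjusted permutation p = 0.076 and 0.096).

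The remaining lists were closer to all genes in KO liver, of which 3.1% were lower and 9.78% higher at an unadjusted p below 0.05. Of 9 genes of the isoprenoid branch 1 was higher at an unadjusted p below 0.05 (Fnta, a prenyl transferase subunit, 0.18, SE 0.08) and 0 lower, with Ggps1 and Pggt1b next by p. Of 10 genes of SREBP processing and sterol-regulated degradation 0 were higher or lower, with Mbtps1, the protease that first cuts SREBP, at -0.11 (SE 0.06), ahead of Mbtps2 and Ufd1. Of 9 LXR targets and efflux genes 1 was lower (Srebf1, also on the lipogenic list, -0.25, SE 0.11), followed by Pltp and Nr1h3. Of 8 genes of sterol esters and lysosomes 1 was higher (Lcat, the plasma acyltransferase, 0.23, SE 0.09), followed by Stard3 and Lipa. Of the 5 genes of oxysterols and bile acids that were tested 0 moved past that level (Cyp27a1, Cyp7a1 and Cyp7b1 had the smallest p), and of 8 sterol carriers 1 was lower (Gramd1c, -0.29, SE 0.13, then Osbp and Scp2). None of these genes passed after adjustment in edgeR.

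With Sqle in WT liver the median r of these lists ran from -0.289 (isoprenoid branch) to 0.305 (oxysterols and bile acids, 5 genes), and 0 of their genes passed. In muscle labelled KO against WT muscle 0 genes of the lists passed after adjustment in edgeR. Those lower at an unadjusted p below 0.05 there were Pdss2 (-0.11, SE 0.03), Syvn1 (-0.09, SE 0.04) and Nr1h2 (-0.18, SE 0.07). Those higher were Fads1 (0.27, SE 0.12), Abca1 (0.19, SE 0.07) and Soat1 (0.39, SE 0.17). The genes tested numbered 9 (isoprenoid branch), 10 (SREBP processing), 13 (lipogenic), 7 (LXR and efflux), 6 (sterol esters), 2 (oxysterols) and 7 (carriers). Of all 13266 genes, 4.88% were lower and 3.76% higher at that p, and these few calls were not told apart from that background. A total of 8 members share exons with another gene in GENCODE vM21 (Cyp51, Fdft1, Fdps, Hmgcs1, Lbr, Lss, Npc1 and Tm7sf2), by 90 to 1124 bases, and their counts carry that uncertainty.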

How the data were processed

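Poly(A) RNA of 44 libraries was sequenced by the authors as 85-base single-end reads from a stranded kit. The aligner, counter, genome build, annotation and strand setting are not given in the sources used here, and limma is named in the submitters' processing notes. The deposited counts are whole reads per Ensembl gene, not normalized. The deposited RPKM values are scaled by the authors for gene length and library depth, and 45.8% of the values with enough reads implied a gene length more than 1% off the gene's median. RPKM was therefore used for levels of genes and tissues and in alternative runs, and not in the main tests. Symbols were matched for 36340 of 38202 identifiers. The 27 members and all lists were chosen with earlier results of these data known.

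Counts were scaled by TMM, filtered with filterByExpr and tested with edgeR 4.0.16 (quasi-likelihood, Benjamini-Hochberg over all genes tested) in R 4.3.3. Liver and muscle were fitted apart for KO against WT, WT libraries for liver against muscle, and all 44 for the interaction. CPM in the text is scaled over all 44 libraries, and log2 CPM for correlations has a prior count of 2. Libraries hold 20150712 to 35218243 counts. On simulated counts with 200 genes changed by 1 on the log2 scale, 90% were recovered in the liver comparison (9 false calls). In muscle 91.5% were recovered, and in the interaction 72.5%. The median log2 fold change of the members in liver, -0.24, was smaller, and recovery at that size was not simulated. Members given by mouse were the 8 with the smallest p in liver and the 4 in muscle, and the 4 highest and 4 lowest tissue differences. Of the other lists, the 3 genes with the smallest p were named. The results of a further list are not reported here. Alternatives were DESeq2 1.42.0, limma-voom 3.58.1, library size alone, other filters, RPKM with pseudocounts of 0.1 and 1, gene length removed by loess, each mouse left out, and the animal as a block. Labels give liver and muscle of 1 animal the same number. Across genes, deviations from group means of same-numbered samples had a median r of 0.108 in WT and 0.101 in KO mice, from -0.026 to 0.26. Among the muscles of its genotype, a liver had its highest r with its own number in 4 of 11 WT and 2 of 11 KO mice. The pairing thus rests on the labels.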

Additional observations from a re-analysis of the deposited data

How the results depend on the processing

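In liver 0 members passed after adjustment and the median fold change of the members kept its sign in every alternative run, from -0.3 to -0.17. Leaving out the KO livers with a slope below 0 left 3 members lower and 0 higher at an unadjusted p below 0.05, in place of 12 and 1, and in the interaction 2 and 0, in place of 9 and 1. In the interaction, library size alone and the animal as a replicate block each left 0 higher. With the animal as a replicate block the interaction had 6 members lower, 0 after adjustment and a median of -0.181, and liver over muscle had 20 and 1 with a median of 2.5. The shares of all genes at that p are not given here for the interaction with the block or without those mice. Over all genes, DESeq2 called 6 genes after adjustment in liver, in place of 3, and 44 in the interaction, in place of 1. A minimum of 10 counts in each library left 1 in liver and 0 in the interaction, and library size alone gave 3 there. In the RPKM fits of liver 1611 to 1913 genes were lower at an unadjusted p below 0.05, in place of 403. In muscle the counts are small and moved with the setting: 0 lower with library size alone, with limma-voom and in the 3 fits to RPKM, 1 higher in those RPKM fits, and 2 lower and 1 higher with gene length removed, in place of 1 and 2. With 1 mouse left out in turn, the members lower in liver numbered 3 to 13 and those higher 1. In muscle 0 to 3 were lower and 0 to 3 higher. For those runs the share of all genes is not given here. KO liver over muscle labelled KO, with the livers with a slope below 0 included, had a median log2 difference of 2.019, against 2.632 in WT mice. The other 110 alternatives, and 148 of the 176 that left out a mouse, stayed within the limits set, covariation with Sqle among them. The lowest counts, such as 5 reads of Idi1 in a KO liver and 13 of Sqle in muscle, limit what can be told of those values.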
